A study of Mus musculus with 10 samples.

Results

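Txnip, Arrdc4, Slc2a1 and Slc2a3 are 4 genes of glucose import, taken by symbol from every deposited expression table of a study of mouse trophoblast stem cells (TSCs). These cells can be kept in culture from the trophectoderm, the outer layer of the blastocyst that goes on to form the placenta. All 4 were found in the bulk table, which lists 17793 genes, and in each of the 4 single-cell tables, which list 25056 genes between them. RNA was measured with CEL-Seq2, a method that primes transcripts at their ends and counts them by molecular labels, in 6 bulk and 4 single-cell libraries, all on a C57BL/6J background. The bulk libraries were 3 of TSCs labelled CDX2-High and 3 labelled CDX2-Low, whose genotype joins eGFP to the coding sequence of the transcription factor CDX2 by knock-in. Each single-cell library came from 1 plate of 384 wells, so that every single-cell group had 1 sample, and all of its cells carried a GFP expression cassette integrated at random. TSC cells (F4) were grown in the medium Tx, and differentiated TSC cells (also F4) had spent 6 days without Fgf4, Tgfb and heparin. The pTSC library held newly derived TSCs kept in LT21 medium, and the blastoid pTSC library held cells of line pTS1 taken out of blastoids, the blastocyst-like structures that stem cells form in culture.

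Slc2a1 and Slc2a3 encode GLUT1 and GLUT3, membrane proteins that let glucose enter down its gradient. In mouse embryos both are made by the trophectoderm, where GLUT3 faces the maternal side and GLUT1 the inner side. Txnip encodes a thioredoxin-binding alpha-arrestin that draws glucose transporters from the cell surface into the cell, and Arrdc4 encodes its closest relative, which also lowers glucose uptake. Transcription of both arrestins rises with glucose-derived metabolites through MondoA or ChREBP paired with MLX, factors that bind paired CACG elements. Slc2a1 and Slc2a3 are also known targets of the hypoxia-inducible factors, whose binding site has the core ACGTG or GCGTG.

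The promoters of these genes are shown because the genes moved together in some comparisons and apart in others. Txnip and the transporters moved together in bulk. In single cells, Arrdc4 parted from both transporters in differentiated TSC over TSC and in blastoid pTSC over pTSC. In differentiated TSC over pTSC, Arrdc4 and both transporters were lower together. RefSeq's promoter table, which is on build GRCm38.p6 and spans 250 bases before to 50 after each start, held 3 of the 4 genes. The windows are chr3:96557707-96558006 on the plus strand for Txnip, chr7:68749189-68749488 on the minus strand for Arrdc4 and chr4:119108495-119108794 on the plus strand for Slc2a1. Capitals mark the matches to the motifs searched on both strands.
Txnip: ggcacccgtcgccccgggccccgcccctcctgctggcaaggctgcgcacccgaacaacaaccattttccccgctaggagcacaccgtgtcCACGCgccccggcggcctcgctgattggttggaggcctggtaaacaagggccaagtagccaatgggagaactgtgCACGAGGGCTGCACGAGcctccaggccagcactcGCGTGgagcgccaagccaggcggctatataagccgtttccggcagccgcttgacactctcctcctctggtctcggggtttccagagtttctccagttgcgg
Arrdc4: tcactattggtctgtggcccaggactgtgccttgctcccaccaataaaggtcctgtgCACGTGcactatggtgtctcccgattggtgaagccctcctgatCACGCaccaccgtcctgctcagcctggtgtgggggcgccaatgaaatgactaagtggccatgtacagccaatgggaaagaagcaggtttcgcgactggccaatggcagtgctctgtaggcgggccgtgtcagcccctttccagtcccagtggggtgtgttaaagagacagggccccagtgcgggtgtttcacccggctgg
Slc2a1: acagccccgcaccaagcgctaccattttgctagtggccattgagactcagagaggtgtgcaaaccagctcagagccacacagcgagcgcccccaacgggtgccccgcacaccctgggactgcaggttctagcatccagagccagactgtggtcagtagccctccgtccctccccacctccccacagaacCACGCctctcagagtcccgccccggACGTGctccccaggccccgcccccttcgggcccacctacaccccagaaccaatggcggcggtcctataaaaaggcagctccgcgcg
The Txnip window held 1 pair of such elements in the same orientation, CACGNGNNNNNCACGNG, from 85 to 69 bases before the start. Only 16 of the 32851 promoters in the table held this pair, or 0.0487%. The Arrdc4 window held 1 E-box, CACGTG, from 193 to 188 bases before the start, and 2349 promoters (7.15%) held at least 1. Each E-box contains ACGTG on both strands. The Slc2a1 window held ACGTG once outside any E-box, from 36 to 32 bases before the start, and 6447 promoters (19.6%) held that core. The other core, GCGTG, was more common, with at least 1 match in 10639 promoters (32.4%). It was found in the Txnip window from 160 to 156 and from 51 to 47 bases before the start, in the Arrdc4 window from 150 to 146 and in the Slc2a1 window from 61 to 57 bases before the start, none of them overlapping the matches above. The longer consensus of the carbohydrate response element was found in 39 promoters (0.119%) and in none of these 3 windows. These are matches of letters, not measured binding sites.

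Bulk totals ran from 157588 to 272030 counts in the CDX2-high libraries and from 116659 to 138966 in the CDX2-low libraries. The reporter transcript, Cdx2-eGFP, matched the labels, with 825, 805 and 728 CPM (counts scaled to a common library total) in CDX2-high and 42.9, 50.4 and 104 CPM in CDX2-low. In single cells, 1192 wells with at least 2000 counts outside mitochondrial genes were kept, 257 to 318 per library, and the median well held 6844 to 15091 counts. The libraries labelled F4 differed from each other in sex-linked counts. The TSC library had 0 counts of 4 Y-linked genes and 1515 of Xist, and the differentiated library had 193 and 14, so that differentiation and cell line cannot be told apart in that comparison. The blastoid library held 18 wells (7.0%) that clustered apart and were epiblast-like by Tdgf1, Fgf4 and Dppa5a among their leading genes, against the label of pTSCs, and its levels are given with and without them. Well positions are numbered alike on every plate, and shared numbers do not mark shared cells.

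In bulk TSCs, transcripts of Txnip and of both transporters were lower where CDX2 was high. Txnip differed most, with mean levels 4.36-fold apart, and Slc2a1 and Slc2a3 were each 1.86-fold apart. Of the 4 genes, 3 had enough counts to be tested, and all 3 fell in edgeR's quasi-likelihood test at a p under 0.05 after Benjamini-Hochberg adjustment over all genes tested, where 2.79% of the 3006 genes tested fell, 3.09% rose and 5.89% did either. In all 3, every CDX2-high library lay below every CDX2-low library, as was so for 11.0% of the genes tested. Fewer cells of a type and less RNA per cell cannot be told apart in such pools.

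Txnip, the arrestin that removes transporters from the surface, had 63.5, 54.4 and 25.7 CPM in the CDX2-high libraries and 171, 158 and 296 CPM in the CDX2-low libraries. The highest CDX2-high library was thus at less than the level of the lowest CDX2-low one, and the groups did not overlap. The means were 47.9 ± 19.7 CPM (SD, n = 3) and 209 ± 76.2 CPM (SD, n = 3), from 7 to 14 counts per CDX2-high library and 20 to 40 per CDX2-low library. The log2 fold change of CDX2-high over CDX2-low was -2.20 (SE 0.37, 95% interval -2.95 to -1.44), with an adjusted p of 0.000357 by edgeR.

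Slc2a1, the transporter found in most growing cells, had 571, 828 and 702 CPM in CDX2-high and 1432, 949.9 and 1534 CPM in CDX2-low. CDX2-low replicate 41 lay closest to the CDX2-high group, and the groups did not overlap. Means were 700.5 ± 129 CPM (SD, n = 3) and 1305 ± 312 CPM (SD, n = 3). The log2 fold change was -0.90 (SE 0.21, 95% interval -1.33 to -0.47), with an adjusted p of 0.00937 by edgeR. Leaving out CDX2-high replicate 37 or 39 ended this call, with adjusted p = 0.0920 and 0.0592 by edgeR, while the fold change stayed negative.

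Slc2a3, the high-affinity transporter, had 292, 338 and 232 CPM in CDX2-high and 480.0, 468 and 652 CPM in CDX2-low. CDX2-low replicate 42 was the highest, and again the groups did not overlap. Means were 287 ± 53.5 CPM (SD, n = 3) and 533 ± 103 CPM (SD, n = 3), a log2 fold change of -0.91 (SE 0.23, 95% interval -1.38 to -0.44) with an adjusted p of 0.0158 by edgeR. The call ended without CDX2-high replicate 37 or 39 or CDX2-low replicate 42 (adjusted p = 0.0691, 0.143 and 0.0668 by edgeR) and with DESeq2 (adjusted p = 0.0659).

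Arrdc4 was barely measured in bulk and was not tested. Its libraries held 0, 4 and 1 counts in CDX2-high, or 0, 15.6 and 3.68 CPM, and 8, 1 and 2 counts in CDX2-low, or 68.6, 7.20 and 14.8 CPM. A single library, CDX2-low replicate 40, held 8 of the 16 counts, and the groups overlapped. With no filter on low counts its log2 fold change was -1.80, with an adjusted p of 0.407 by edgeR.

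**Figure D1:**
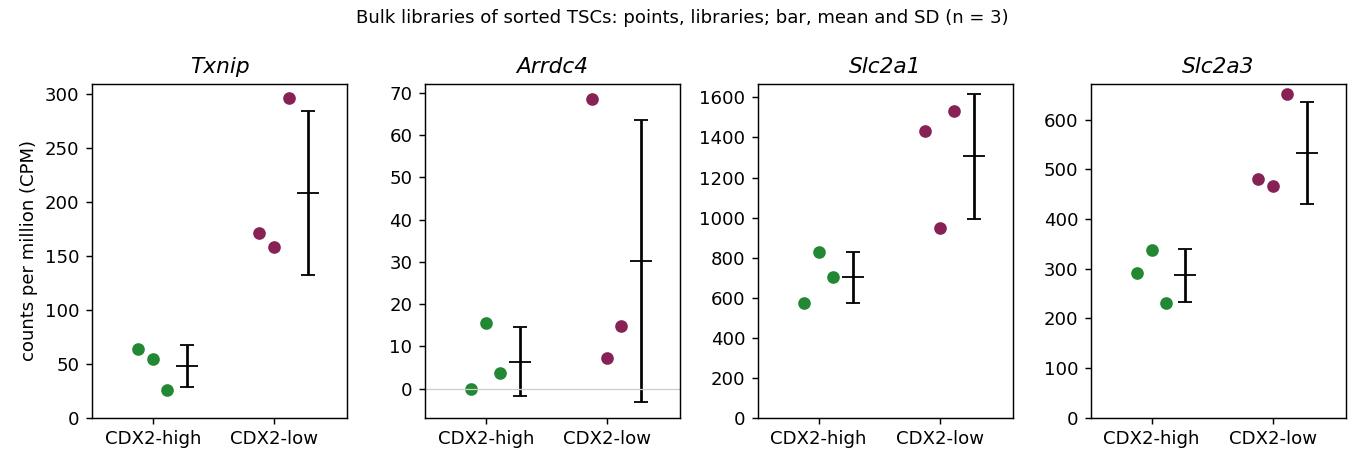
CPM of the 4 genes in the 6 bulk libraries, 1 point per library, with the mean and SD of the 3 libraries of each group. Txnip, Slc2a1 and Slc2a3 lie lower in every CDX2-high library than in every CDX2-low library, from 25.7 to 63.5 CPM against 158 to 296 CPM for Txnip, and Arrdc4 overlaps.

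Depth and cell identity markers moved with the same groups. Thinned to the smallest total, the log2 fold changes were -2.16 for Txnip, -0.76 for Slc2a1 and -0.83 for Slc2a3, and all 3 still passed (adjusted p = 0.00193, 0.0355 and 0.0419 by edgeR). Summed over 14 of 14 markers with counts, the mural trophectoderm list stood at 1555 to 1839 CPM in CDX2-high and 3193 to 3566 CPM in CDX2-low. The polar list, with 15 of 16 markers counted, went the other way, at 5071 to 5711 CPM and 2897 to 4178 CPM. That list includes Cdx2, for which the groups are labelled, so that its sum is not independent of the labels. The ectoplacental cone list, with 6 of 9 markers counted, stood at 197 to 307 CPM and 617 to 911 CPM, and the giant cell list, with 5 of 10 counted, at 152 to 209 CPM and 244 to 334 CPM. The primitive endoderm list, with 6 of 8 markers counted, was low in both groups, at 23.3 to 36.8 CPM in CDX2-high and 51.9 to 60.0 CPM in CDX2-low. The labyrinth and epiblast lists overlapped between the groups. Fibroblast markers, with 5 of the 7 in the table counted, summed to at most 25.7 CPM in any library. The part of these cell identities in the transporter difference was not tested.

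The other genes of the pathway mostly did not follow. Among 13 glucose transporters, 8 had counts and only Slc2a1 and Slc2a3 were tested; Slc2a8, an intracellular transporter, had 22 counts over the 6 libraries and the other 5 had 2 to 7. Of the alpha-arrestins and thioredoxins, 4 of 10 were tested and only Txnip passed. The thioredoxin partners of Txnip had log2 fold changes of -0.06 for Txn1 and -0.07 for Txnrd1, the enzyme that reduces thioredoxin, and neither passed. Txn2, the mitochondrial thioredoxin, stood at -0.36 and did not pass (adjusted p = 0.648 by edgeR), although its CDX2-high libraries, at 63.5, 85.6 and 88.2 CPM, lay below its CDX2-low libraries, at 129, 93.5 and 88.9 CPM. Mlx, the partner that MondoA and ChREBP share, was the only tested gene of its list, at 0.51 (adjusted p = 0.477 by edgeR). Mlxip, which encodes MondoA, had 30 counts over all libraries and Mlxipl, which encodes ChREBP, had 3.

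None of 12 tested glycolytic genes passed, where 5.89% of all genes tested did, and their median log2 fold change of 0.03 lay near the median of -0.01 over all genes tested. Hk1 and Hk2, the hexokinases that trap imported glucose, stood at -0.17 and -0.08. Gapdh and Pkm, further down the pathway, stood at 0.49 and 0.41. Transporter trafficking and Txnip turnover had 0 of 8 past the threshold with a median of -0.03, and lactate and pyruvate handling 0 of 4 with a median of -0.23. In lists this short, counts of 0 lie near the share of 5.89% and say nothing particular about them. In the pentose phosphate and hexosamine list, 2 of 4 tested genes changed. Tkt, a transketolase, rose by 0.83 (adjusted p = 0.0416 by edgeR), and Taldo1, a transaldolase of the same branch, fell by 0.88 (adjusted p = 0.0182 by edgeR). Of 16 hypoxia response genes 2 were tested: Ddit4, a stress-induced inhibitor of mTORC1, fell by 0.98 (adjusted p = 0.0278 by edgeR), and Ndrg1 had a log2 fold change of -1.10 that did not pass (adjusted p = 0.0663 by edgeR). The Tkt, Taldo1 and Ddit4 calls each ended with DESeq2 (adjusted p = 0.0517, 0.124 and 0.242) and under several of the leave-one-out fits.

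Single-cell levels were read gene by gene, because the tables weighed genes unequally. Among genes with 1 annotated transcript in GENCODE, the median log2 ratio of single-cell TSC level over mean bulk level was 0.58 (182 genes), and among genes with 5 or more it was -2.72 (1791 genes). Txnip, with 6 annotated transcripts, had 128 CPM in bulk and 2.04 CPM in single TSCs, a log2 ratio of -5.97. The same ratio was -0.90 for Arrdc4, -2.11 for Slc2a1 and -3.32 for Slc2a3. No level is therefore compared between genes. Some glycolytic genes were captured little. Gapdh had 15.2 CPM in single TSCs, against bulk means of 1843 CPM in CDX2-high and 1299 CPM in CDX2-low. Pkm had 1.67 CPM, against 2064 and 1548 CPM, whereas Tpi1 had 679 CPM, against 255 and 323 CPM. Ratios and medians of the glycolysis list in single cells thus rest in part on genes of which few transcripts were counted. The single-cell tables give counting intervals but no test, since each group is 1 library, and a gene is counted as higher or lower at 2-fold or more.

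Txnip was close to the floor of the single-cell libraries. It had 11 counts in TSC, 4 in differentiated TSC, 3 in pTSC and 4 in blastoid pTSC, or 2.04, 1.23, 1.23 and 1.73 CPM. After each well was thinned to 2000 counts, 0.314% to 0.629% of wells held a count. Every interval of a ratio between libraries held 1, such as 1.66-fold in TSC over differentiated TSC (0.492 to 7.15), so that these few counts could not show a difference between the libraries. The TSC library kept 5388767 counts in all, more than any bulk library.

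Arrdc4, the second arrestin, was lowest in TSC and highest in pTSC. The TSC library held 53 counts, or 9.84 CPM (exact 95% Poisson interval 7.37 to 12.9, which covers counting error only, as do all intervals on these libraries). Differentiated TSC held 87 counts, or 26.7 CPM (21.4 to 33.0). Blastoid pTSC held 111 counts, or 47.9 CPM (39.4 to 57.7), and pTSC held 167 counts, or 68.5 CPM (58.5 to 79.7). Each step of that order exceeded counting error, at 2.72-fold (1.91 to 3.90), 1.79-fold (1.34 to 2.40) and 1.43-fold (1.12 to 1.83). Without the epiblast-like wells, blastoid pTSC stood at 47.5 CPM (38.8 to 57.5). In thinned wells, 1.89% of TSC wells, 5.66% of differentiated, 9.34% of blastoid and 11.7% of pTSC wells held a count, and without thinning 14.5%, 20.1%, 28.02% and 33.1% did.

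Slc2a1 was lowest in differentiated TSC and highest in TSC and blastoid pTSC. Differentiated TSC held 269 counts, or 82.7 CPM (73.1 to 93.1), and pTSC held 341, or 139.9 CPM (125 to 156). TSC held 1249 counts, or 232 CPM (219 to 245), and blastoid pTSC 601, or 259.5 CPM (239 to 281). The step from differentiated TSC to pTSC was 1.69-fold (1.44 to 1.99), that from pTSC to TSC 1.66-fold (1.47 to 1.87), and that from TSC to blastoid pTSC 1.12-fold (1.01 to 1.24). The last step rests on few cells, since 1 blastoid well with 50 counts held 8.32% of the library's Slc2a1 counts and 10 wells held 32.3%. Without the epiblast-like wells the blastoid level was 270.3 CPM (249 to 293) and the step over TSC 1.17-fold (1.06 to 1.29). Thinned wells gave another order at the top, with a count in 39.6% of TSC, 30.7% of blastoid, 22.1% of pTSC and 16.4% of differentiated wells (86.5%, 66.1%, 56.9% and 48.7% without thinning).

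By summed level, Slc2a3 shared the lowest and the highest library with Slc2a1, although the lead of blastoid pTSC over TSC in Slc2a1 rested on few cells. Differentiated TSC held 39 counts, or 11.98 CPM (8.52 to 16.4), pTSC 92 counts, or 37.7 CPM (30.4 to 46.3), TSC 221 counts, or 41.01 CPM (35.8 to 46.8), and blastoid pTSC 152 counts, or 65.6 CPM (55.6 to 76.9). The pTSC and TSC levels did not differ beyond counting error, at 1.09-fold (0.848 to 1.40). The steps on either side did, at 3.15-fold (2.14 to 4.71) from differentiated TSC to pTSC and 1.6-fold (1.29 to 1.98) from TSC to blastoid pTSC. Without the epiblast-like wells, blastoid pTSC held 125 counts, or 56.5 CPM (47.03 to 67.3), and its step over TSC was 1.38-fold (1.10 to 1.72). Thinned wells with a count made up 3.14%, 5.35%, 5.97% and 11.3% in the same order, against 10.4%, 20.1%, 35.2% and 29.96% without thinning. In the 239 blastoid wells that were not epiblast-like, 8.79% held a count after thinning and 27.6% before.

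**Figure D2:**
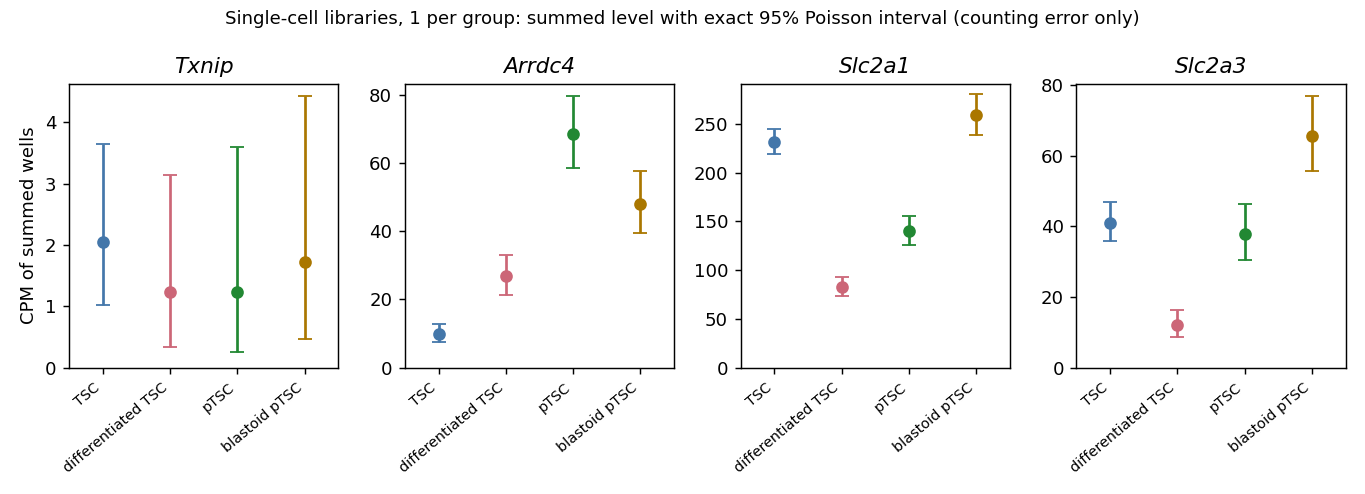
CPM of each gene, summed over the kept wells of each of the 4 single-cell libraries, with exact 95% Poisson intervals that cover counting error only. The axes differ between genes; Arrdc4 is lowest in TSC at 9.84 CPM, whereas Slc2a1 and Slc2a3 are lowest in differentiated TSC at 82.7 and 11.98 CPM.

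The library differentiated for 6 days had less transporter and more Arrdc4 transcript than the TSC library. Differentiated TSC had 2.80-fold less Slc2a1 (2.46 to 3.21) and 3.42-fold less Slc2a3 (2.43 to 4.94) than TSC, and 2.72-fold more Arrdc4. In this comparison 18.0% of 12158 measured genes were lower by 2-fold or more and 17.5% were higher. With pTSC as the undifferentiated library, Slc2a3 was 3.15-fold and Slc2a1 1.69-fold lower, but Arrdc4 was 2.56-fold lower instead of higher (1.97 to 3.36), where 22.5% of 11503 genes were lower and 20.5% higher. The direction of the transporters thus did not depend on which undifferentiated library was used, and that of Arrdc4 did. The pTSC library had 1 count of the Y-linked genes and 474 of Xist, so that it too differed from the differentiated library in sex-linked counts. Differentiation and cell line therefore cannot be told apart with either library. The differentiated library had the highest mitochondrial share (22.9% against 13.8% in TSC), a summed polar list of 2304 CPM against 7288 CPM with Ly6a as the only marker at 0, and a summed mural list of 9297 CPM against 5082 CPM with only Gata2 at 0. Other identity lists moved as well. The giant cell list, with 6 of 10 markers counted, summed to 574 CPM against 85.9 CPM with 8 of 10 counted, and Prl2c2, Prl3b1, Prl3d1 and Ctsq were at 0 in the differentiated library. The ectoplacental cone list (8 of 9 counted, Ascl2 at 0) summed to 5348 CPM against 2009 CPM, and the labyrinth list (8 of 9, Synb at 0) to 403 CPM against 169 CPM. The epiblast list summed to 459.97 CPM against 194 CPM, with Pou5f1, Nanog and Tdgf1 at 0 in the differentiated library. Fibroblast markers, with 7 of 8 counted, summed to 23.0 CPM and 10.4 CPM. The part of these in the transporter difference was not tested.

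Of the 5 measured glucose transporters 3 were lower by 2-fold or more in the differentiated library, and none was higher by as much. Over all measured genes 18.0% were lower and 17.5% higher. The list includes Slc2a1 and Slc2a3, which are among the 3, and its median log2 ratio of -1.49, beside 0.05 over all measured genes, is that of Slc2a1. The third was Slc2a10, named after its values were seen, with 4 counts against 20, and Slc2a12, a facilitative transporter, was 1.45-fold higher. Arrestins and thioredoxins had 2 higher and 1 lower of 7, which besides Arrdc4 were Arrdc3 (9 counts against 4) and Arrdc2 (6 against 20), both named after their values were seen, and the mitochondrial thioredoxin Txn2 was 1.62-fold lower. In the MondoA list, 1 of 7 was higher: Mxd1, which competes for shared partner proteins, at 2.56-fold, while the large MAX-binding repressor Mga stood at 1.61-fold. Vps35, the retromer subunit that returns Slc2a1 protein to the surface, was 2.01-fold higher, and Nedd4, a ubiquitin ligase, 1.77-fold higher.

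Glycolytic genes had 6 of 15 lower and none higher, with a median of -0.68, where 18.0% of all measured genes were lower. For 3 of the 6 the interval held 1, on very few counts: Pgk1 (1 count against 11), Pkm (1 against 9) and Ldha (3 against 10), named after their values were seen. Pfkl, the liver-type phosphofructokinase subunit, was 3.6-fold lower (2.99 to 4.38), and Gpi1, the next enzyme after hexokinase, was 2.90-fold lower (1.95 to 4.45). Tkt was 4.82-fold lower and Taldo1 1.96-fold lower. Pdk1, which holds pyruvate dehydrogenase inactive, was 2.08-fold lower, and Mpc2, a subunit of the mitochondrial pyruvate carrier, was 2.22-fold higher. In the hypoxia list, 3 of 10 were lower and 2 higher with a median of -0.54, where 18.0% and 17.5% of all measured genes were. Epas1, the HIF2 alpha subunit, was 2.71-fold lower, and Egln1, the oxygen-sensing prolyl hydroxylase, was 2.26-fold lower.

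The pTSC and TSC libraries, both undifferentiated, differed most in Arrdc4. Arrdc4 was 6.97-fold higher in pTSC (5.09 to 9.68), past the 2-fold mark that 17.6% of 12070 measured genes passed upwards, and was as high without the well that held 12 of its 167 counts (6.85-fold). Slc2a1 was 1.66-fold lower and Slc2a3 1.09-fold lower with an interval that held 1, so that neither passed the 2-fold mark that 13.9% of genes passed downwards. When every well was thinned to 2000 counts, Slc2a1 was 2.17-fold lower, past that mark. Cell identity lists differed between these libraries too. The polar list, with all 16 markers counted, summed to 18106 CPM in pTSC and 7288 CPM in TSC, and the mural list to 6741 CPM and 5082 CPM. The labyrinth list (4 of 9 counted in pTSC, with Gcm1, Syna and Synb at 0) summed to 18.5 CPM and 169 CPM, and the ectoplacental cone list (5 of 9, with Ascl2, Tpbpa and Tpbpb at 0) to 1270.2 CPM and 2009 CPM. The giant cell list summed to 288 CPM and 85.9 CPM, from only 2 of its 10 markers in pTSC. The fibroblast list summed to 44.7 CPM in pTSC and 10.4 CPM in TSC, with Col1a2, Col3a1, Dcn, Lum and Postn at 0 in pTSC. The part of these in the Arrdc4 difference was not tested. Medium, derivation and line differ together between these libraries and cannot be told apart.

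Of 5 measured transporters 3 were lower by 2-fold or more, where 13.9% of all measured genes were. Their median was -1.18 beside -0.04 over all measured genes. Slc2a12 was 2.35-fold lower (1.64 to 3.46), and the other two, named after their values were seen, were Slc2a10 (2 counts against 20) and Slc2a5 (3 against 15). Txn2 was 1.28-fold lower. Of the MondoA list, 1 of 7 was lower by 2-fold, Mlxip, with 5 counts against 29, named after its values were seen. Mnt, a MAX and MLX partner, was 1.88-fold lower and Mxd1 1.53-fold lower (0.810 to 3.10). Itch, a ubiquitin ligase that marks Txnip for degradation, was 2.09-fold higher (1.59 to 2.75), and Prkaa2, a catalytic subunit of AMP-activated kinase, was 2.26-fold lower (1.62 to 3.22).

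Glycolytic genes had 7 of 15 lower and 2 higher with a median of -0.73, where 13.9% of all measured genes were lower and 17.6% higher. The interval left out 1 for 6 of the 7 lower genes and for both of the 2 higher ones. Among those with at least 50 counts over both libraries, Aldoa was 3.51-fold lower (1.91 to 7.03, 12 counts against 93) and Ldhb 3.39-fold lower (1.62 to 8.22, 8 counts against 60). Both were captured little, at 17.3 and 11.1 CPM in single TSCs. Their bulk means were 415 and 381 CPM in CDX2-high and 435 and 281 CPM in CDX2-low. Other lower genes had more counts. Tpi1 was 2.23-fold lower (2.06 to 2.42, 742 counts against 3661). Pfkl was 2.09-fold lower (1.76 to 2.48, 167 counts against 770). Both were named here after their values were seen. Pdha1, a subunit of pyruvate dehydrogenase, was 1.56-fold lower and its inhibitor Pdk4 1.69-fold higher. Tkt was 1.93-fold lower and Pgls, of the oxidative pentose branch, 1.74-fold higher. Hypoxia response genes had 3 of 10 lower and 1 higher with a median of -0.74, and Epas1 was 5.21-fold lower (4.05 to 6.79) and Ndrg1 4.03-fold lower (3.49 to 4.67).

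Summed over the library, cells taken from blastoids had more transporter and less Arrdc4 transcript than pTSCs in culture. Slc2a1 was 1.85-fold higher (1.62 to 2.12) and Slc2a3 1.74-fold higher (1.33 to 2.28), and Arrdc4 was 1.43-fold lower (1.12 to 1.83). None of the 3 passed 2-fold, which 13.4% of 11343 measured genes passed upwards and 9.42% downwards, 22.8% in all. Without the 18 epiblast-like wells, Slc2a1 was 1.93-fold and Slc2a3 1.5-fold higher, and Arrdc4 1.44-fold lower. The higher Slc2a1 level lay in 1 cluster of 132 wells, at 405 CPM. The other clusters, of 107 wells and the 18 epiblast-like wells, stood at 114 and 29.0 CPM, against 139.9 CPM in pTSC as a whole. Without the 5% of wells with the most counts in each library, Slc2a1 was 1.54-fold higher, and in wells thinned to 2000 counts Slc2a3 was 2.0-fold higher (31 counts against 18). The pTSC library enters this comparison and the one with TSC, so that the 2 sets of ratios are not independent. How the newly derived pTSCs relate to line pTS1 is not stated in the sources used here.

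Among 3 measured transporters, all of them higher by less than 2-fold, Slc2a12 stood at 1.96-fold (67 counts against 36). Mxd1 was 3.89-fold higher (2.07 to 7.82) and Mnt 2.48-fold higher (1.85 to 3.35), 2 of the 5 measured MondoA-list genes and none lower. Over all measured genes 13.4% were higher by 2-fold or more and 9.42% lower. Txn2 was 1.33-fold lower, Akt1, a kinase that promotes transporter delivery to the surface, 1.82-fold higher and Prkaa2 1.49-fold higher (0.994 to 2.26). Among glycolytic genes 1 of 12 passed 2-fold upwards, where 13.4% of all measured genes did. It was Tpi1, at 649 CPM against 304 CPM (2.13-fold), beside 679 CPM in TSC. The list median was 0.38 beside 0.07 over all measured genes, and Eno1 was 1.95-fold lower. Slc16a1, a lactate and pyruvate carrier, was 1.52-fold higher, Pdha1 1.40-fold higher, Gfpt2, which opens the hexosamine branch, 1.30-fold higher (0.831 to 2.03) and Pgd 1.36-fold lower.

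Hypoxia response genes had 3 of 10 higher and none lower by 2-fold, with a median of 0.40. Over all measured genes 13.4% were higher and 9.42% lower, with a median of 0.07. Ndrg1, which is also on the mural list, stood at 751 CPM in blastoid pTSC and 84.9 CPM in pTSC, an 8.85-fold difference (7.66 to 10.3). Epas1 was 3.30-fold higher (2.49 to 4.41), and the third, Bnip3, a mitophagy receptor named after its values were seen, was 2.75-fold higher (2.39 to 3.18). Ddit4 stood at 1.93-fold lower. The mural list summed to 12583 CPM in blastoid pTSC and 6741 CPM in pTSC, and the polar list to 6625 CPM and 18106 CPM. The ectoplacental cone list (8 of 9 markers counted in blastoid pTSC, 5 of 9 in pTSC) summed to 4278 CPM and 1270.2 CPM, and the labyrinth list (7 of 9 and 4 of 9, with Synb at 0 in both) to 109 CPM and 18.5 CPM. Their part in the transporter difference was not tested.

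**Figure D3:**
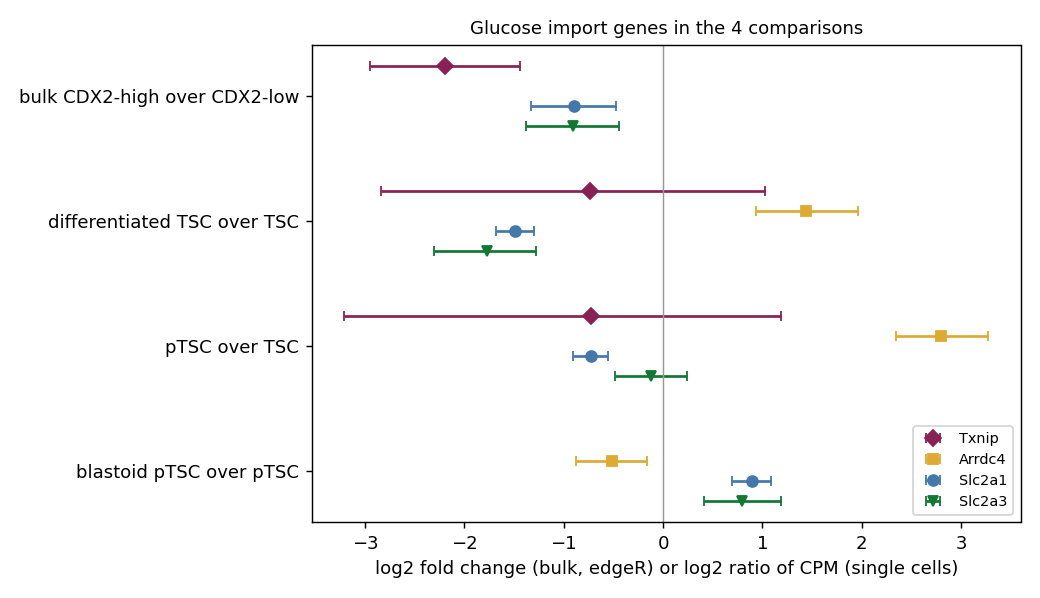
Log2 fold change of the 4 genes in bulk (edgeR, 95% interval over 3 against 3 libraries) and log2 ratio of summed levels in single cells (1 library per group, exact 95% interval for counting error only). Slc2a1 and Slc2a3 lie left of 0 in CDX2-high and in differentiated TSC and right of 0 in blastoid pTSC; untested or unmeasured genes are not drawn.

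**Figure D4:**
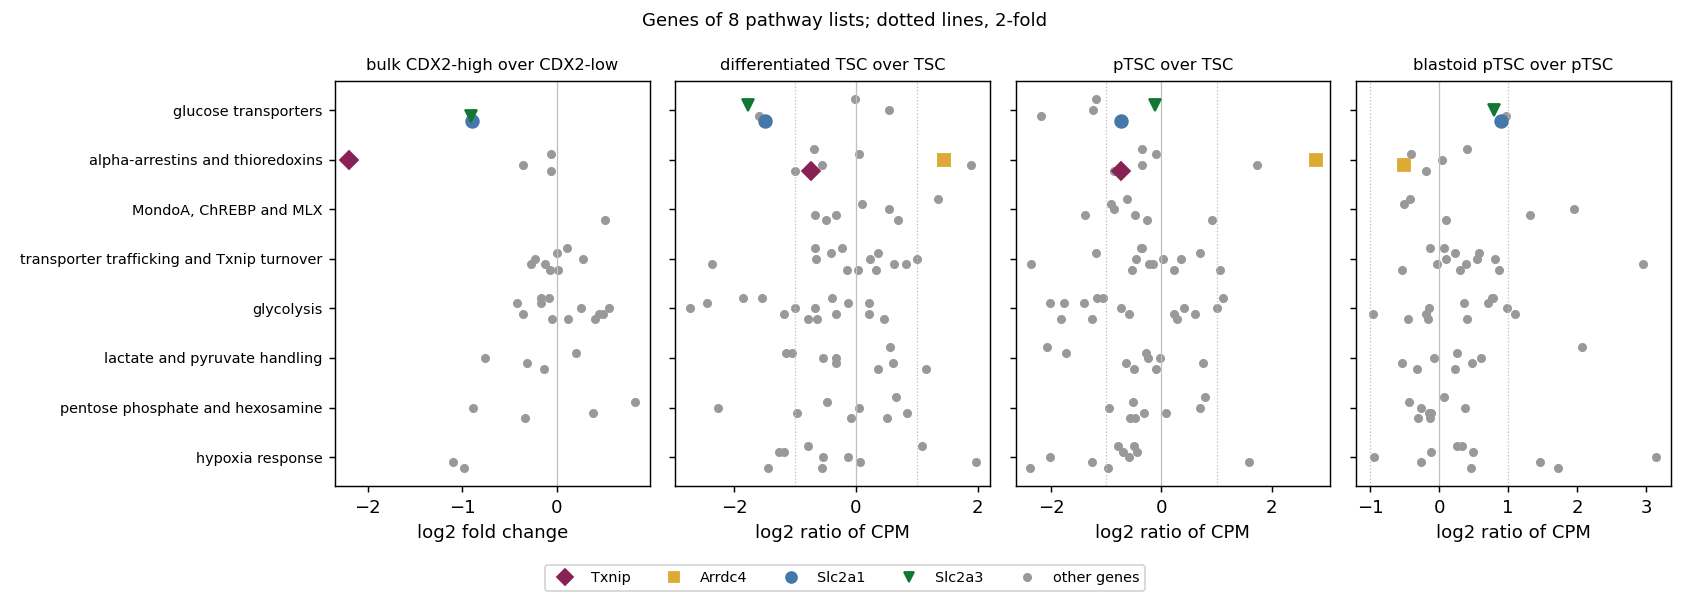
Every tested (bulk) or measured (single-cell) gene of the 8 pathway lists, by log2 difference, with the 4 genes of glucose import as larger symbols and dotted lines at 2-fold in the single-cell panels. In bulk, Txnip lies at -2.20 and both transporters near -0.90, while the 12 tested glycolytic genes lie on both sides of 0 with a median of 0.03.

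Within each library, clusters of wells found without the 4 genes differed in transporter level. In TSC, the polar trophectoderm-like cluster (led by Cyp26a1 and Sox3, 147 wells) had 162 CPM of Slc2a1 and 25.04 CPM of Slc2a3. The cluster led by Gjb2, a gap junction gene of the labyrinth, and by Zfp36l3 and Sct (54 wells) had 405 CPM and 68.1 CPM, or 2.08-fold (1.84 to 2.35) and 1.94-fold (1.43 to 2.60) the level in the other wells. The third, led by Ptges and Capn6 (117 wells), lay between them at 232 CPM and 46.7 CPM. Arrdc4 stood at 8.38 to 10.2 CPM in the 3 clusters, with overlapping intervals.

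In the differentiated library, Slc2a1 stood at 83.0 to 93.4 CPM in 3 clusters and at 53.5 CPM in the polar trophectoderm-like one (42 wells), 1.62-fold below the other wells (1.05 to 2.64). The cluster led by Serpinb9e and Serpinb9g (giant cell list) also had Hsd11b2 and Gjb2 (labyrinth list) among its 10 leading genes. It was left unnamed. This cluster had 1 count of Slc2a3 in 77 wells, or 1.53 CPM, against 38 counts and 14.6 CPM in the others, a 9.53-fold difference (1.61 to 386). The same cluster had 33.7 CPM of Arrdc4 and 93.4 CPM of Slc2a1.

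In pTSC, 1 cluster stood highest in all 3 measurable genes. It was led by Tns4, Fosb and Vgll3 with Krt7 among its 10 leading genes (108 wells), and had 182 CPM of Slc2a1, 61.8 CPM of Slc2a3 and 111 CPM of Arrdc4. These were 1.62-fold (1.30 to 2.01), 2.78-fold (1.78 to 4.39) and 2.70-fold (1.95 to 3.76) the levels in the other wells. The cluster led by Sox3 and Zic2 (123 wells) had 108 CPM of Slc2a1, 24.6 CPM of Slc2a3 and 42.4 CPM of Arrdc4. The third, led by Ets1, Tmem173 and Gja1 (68 wells), had 119 CPM, 18.7 CPM and 39.1 CPM, lower than the second in Slc2a3 and Arrdc4. The median depths of the clusters, in the order given, were 8120.5, 6028 and 7280 counts per well.

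In the blastoid library, the transporters parted between clusters. Slc2a1 stood at 405 CPM in the cluster led by Tns4, Nrk and Anxa1 (132 wells), at 114 CPM in the one led by Tmem114, Duox2 and Nat8l (107 wells) and at 29.0 CPM, from 3 counts, in the 18 epiblast-like wells. The first was 3.82-fold above all other wells (3.12 to 4.71), and 373 CPM without its highest well. Slc2a3 stood at 60.4 CPM and 51.9 CPM in those larger clusters and at 261 CPM (172 to 379) in the epiblast-like wells, from 27 of the library's 152 counts. That was 4.62-fold above the other wells (2.93 to 7.04), with 223 CPM left without the highest well, and 44.4% of thinned epiblast-like wells held a count. Of Txnip's 4 counts in this library, 3 lay in the epiblast-like wells. Arrdc4 stood at 46.0 to 58.0 CPM in the 3 clusters, with overlapping intervals.

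The epiblast-like wells had a median of 4942.5 counts, against 8071 and 8779 in the other clusters. They held 62 counts of Tdgf1, a Nodal co-receptor, 43 of Fgf4 and 57 of Dppa5a, against 0 to 3 of each in either larger cluster. Pou5f1, the defining factor of the epiblast, had 6 counts in 5 of the 18 wells and 0 in the other clusters, and Nanog was at 0 throughout.

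**Figure D5:**
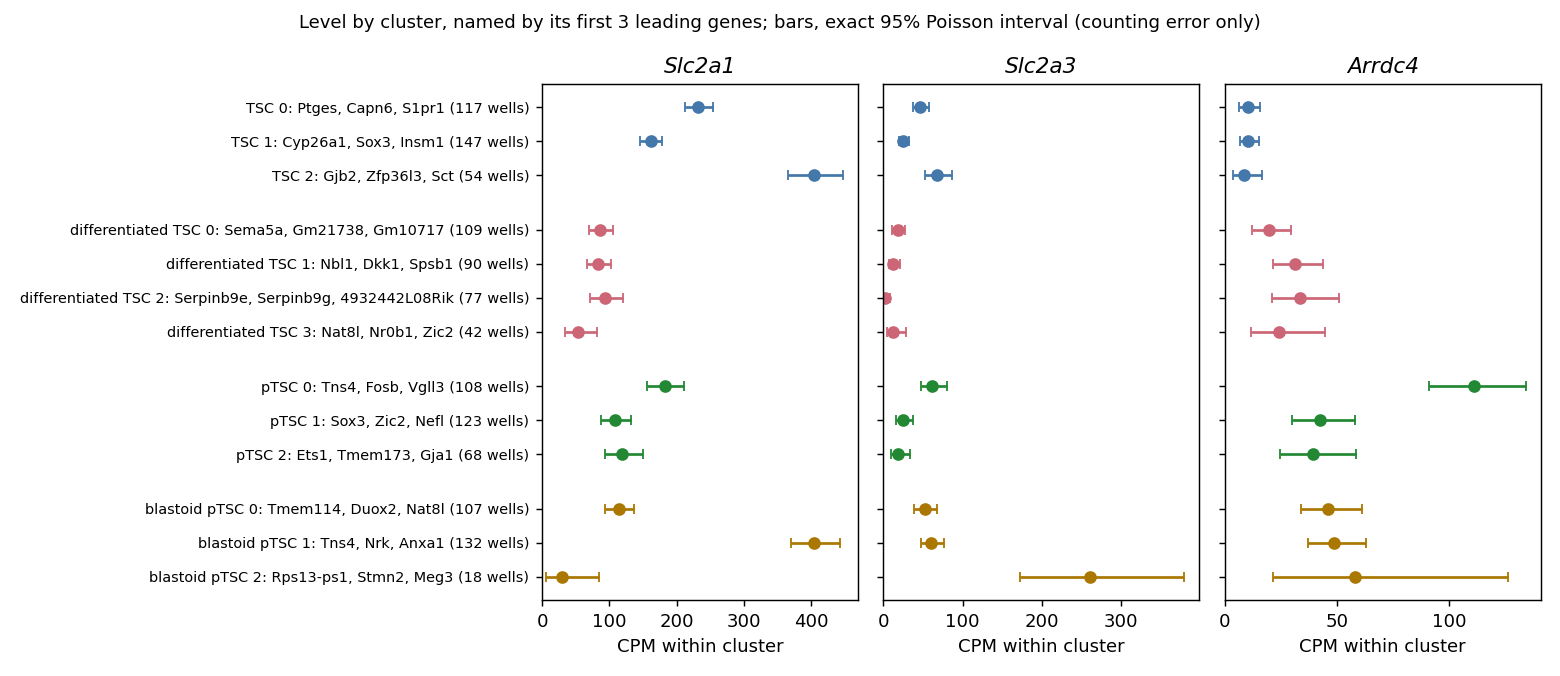
Level of Slc2a1, Slc2a3 and Arrdc4 in CPM within each cluster of wells, clusters found without these genes and named by their first 3 leading genes, with exact 95% Poisson intervals. In blastoid pTSC, Slc2a1 is highest in cluster 1 at 405 CPM, and Slc2a3 is highest in the 18 wells of cluster 2 at 261 CPM.

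From well to well, the 4 genes went together weakly at most. The correlation of Slc2a1 with Slc2a3 across wells was 0.24 in TSC (318 wells), 0.06 in differentiated TSC, 0.05 in pTSC and -0.12 in blastoid pTSC. Wells of a library share its plate and differ in depth, and in counts this sparse such values are descriptions. Arrdc4 with Slc2a1 gave -0.06, -0.11, -0.02 and -0.07 in the same order. After thinning, 8, 3, 4 and 5 wells held both transporters, where the shares of wells with each gene would give 7.53, 1.64, 3.53 and 8.91 if the genes were independent.

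In wells as sequenced, which differ in depth and mean, the variance of Slc2a1 counts between wells was 9.32 times the mean in blastoid pTSC, 5.36 in TSC, 1.86 in differentiated TSC and 1.81 in pTSC. Without the well with the most Slc2a1 counts in each library it was 6.01, 4.72, 1.71 and 1.71 times the mean. In wells thinned to 2000 counts it was 1.40, 1.12, 1.03 and 1.02 times the mean in the same order. The genes most like Slc2a1 by mean correlation over the 4 libraries, among 5137 genes, were Epn3, an endocytic adaptor, at 0.24, Ndrg1 at 0.23 and the epithelial keratin Krt8 at 0.23. For Ndrg1 the correlation was 0.35 in TSC and 0.44 in blastoid pTSC but 0.09 in differentiated TSC and 0.04 in pTSC. Krt8 reached 0.45 in blastoid pTSC. No gene reached the mean of 0.2 required for naming with Txnip, Arrdc4 or Slc2a3.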

How the data were processed

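The authors deposited unscaled counts of reads or transcripts in whole numbers for each bulk library and gene. The deposited values of single wells were taken as estimated counts, because a correction for molecular labels shared by chance may or may not have been made; all of them are whole numbers. The submitters' processing notes list STAR 2.5.3a, and for build, annotation and counting program the sources used here say nothing. The barcode list was not analysed here.

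The members, gene lists and tests were chosen with earlier results of these data known. Nothing in the labels says whether the bulk libraries came from separate cultures, so the p-values rest on a spread that may be technical. Bulk counts were fitted with edgeR 4.0.16 (filterByExpr, TMM, glmQLFit, glmQLFTest, no covariate) in R 4.3.3, with limma 3.58.1 and DESeq2 1.42.0, at a Benjamini-Hochberg adjusted p under 0.05 over all genes tested. Each SE was derived from the fold change and its F statistic. Single-cell counts were summed over wells with at least 2000 counts outside mitochondrial genes and divided by their total (CPM). A gene was measured in a comparison where its counts in the 2 libraries together reached 10, and a count of 0 was set to 3 counts. Ratios carry exact conditional binomial intervals and shares of wells exact Clopper-Pearson intervals at 95%, for counting error only. Shares were computed after thinning each well to 2000 counts. Doublets were not called, since wells were filled by sorting. Clusters came from scanpy 1.11.5 within each library (scaled to 10000 counts, log1p, 2000 variable genes without the 4 members, 30 principal components, 15 neighbours, Leiden resolution 0.5), and were named where at least 3 of the 10 leading genes by fold, among genes in at least 25% of wells, were markers of 1 type from 8 lists. Named besides the 4 genes were, from 8 pathway lists, every bulk gene that passed and, per single-cell comparison, the 2 largest ratios with at least 50 counts; and the genes with a mean correlation of at least 0.2, among those found in at least 10% of wells of every library. Other genes are named only to describe their list. Scripts were tested on simulated data. Python 3.11.15, numpy 2.4.6, pandas 2.3.3, scipy 1.17.1 and matplotlib 3.10.9 were used.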

Additional observations from a re-analysis of the deposited data

Results flagged for a closer look

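Wells under 2000 counts, which no comparison used, held counts of these genes above the 3 that a count of 0 would allow in 3 instances. In TSC, 7 counts of Slc2a1 lay in 66 such wells, or 179 CPM of their 39077 counts, beside 232 CPM in the wells kept. In blastoid pTSC, 9 counts of Slc2a1 lay in 127 such wells, or 229 CPM of 39345 counts, beside 259.5 CPM. In pTSC, 7 counts of Arrdc4 lay in 85 such wells, or 112 CPM of 62599 counts, beside 68.5 CPM. The exact Poisson intervals of these 3 levels (72.0 to 369, 105 to 434 and 45.0 to 230.4 CPM) held the level of the wells kept. Wells under 200 counts, 17 in TSC and 87 in blastoid pTSC, held 1 count of Slc2a1 in each of these libraries.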

How the results depend on the processing

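In bulk, Txnip kept its direction and its call under all 12 alternatives, with log2 fold changes from -2.37 to -1.83 over the 6 fits that left out 1 library. Slc2a1 and Slc2a3 kept their direction in every alternative; over the leave-one-out fits Slc2a1 ranged from -1.08 to -0.74 and Slc2a3 from -1.03 to -0.72, with the losses of call given above, and DESeq2 gave -0.87 for Slc2a3 (adjusted p = 0.0659). Genes higher in CDX2-high numbered 93 and genes lower 84; DESeq2 called 45 and 31, and the leave-one-out fits 50 to 98 higher and 31 to 91 lower. No paired analysis was made because the labels name no pairing of the bulk libraries. The replicate numbers, 37 to 39 and 40 to 42, do not show whether the groups came from the same cultures. In single cells, 2 ratios turned: Arrdc4 in differentiated TSC stood at -1.36 (log2) over pTSC, where Slc2a1 stood at -0.76, and Txnip in pTSC over TSC went from -0.73 to 0.26 as a mean over wells (3 counts against 11). Thinning wells to 2000 counts gave -1.0 for Slc2a3 in differentiated TSC over TSC (11 counts against 22) and -1.12 for Slc2a1 in pTSC over TSC, where the mean over wells gave -0.92. Without the 5% of wells with the most counts, Slc2a1 in blastoid pTSC over pTSC stood at 0.63. Thinning also moved the genes past 2-fold to 1271 higher and 1209 lower (differentiated TSC over TSC), 1010 and 992 (pTSC over TSC) and 929 higher (blastoid pTSC over pTSC), where fewer genes are measured. Few counts limit Txnip in single cells (3 to 11 per library) and Arrdc4 in bulk (0 to 8). The other causes were not tested. Leaving out the well with the most counts of each gene, and the epiblast-like wells, was chosen after seeing the data, for levels and spread as for ratios.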

Other observations

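Set against pTSC instead of TSC, the differentiated library differed in other genes of the pathway as well. Of 4 measured transporters 2 were higher by 2-fold or more, where 20.5% of all measured genes were. Slc2a12 was 3.41-fold higher (2.37 to 5.04). The other was Slc2a5, named after its values were seen, with 9 counts against 3. Gpi1 was 6.28-fold lower (4.21 to 9.64), Tkt 2.5-fold lower (2.21 to 2.83) and Ldhb 3.93-fold higher (1.82 to 9.70). Vps35 was 2.78-fold and Nedd4 2.08-fold higher. Mxd1 and Mnt were 3.92-fold and 2.01-fold higher, Mpc2 was 3.13-fold and Rpia, of the pentose phosphate branch, 2.10-fold higher. Ndrg1 was 2.78-fold higher (2.38 to 3.26), whereas it was 1.45-fold lower than in TSC, and Vhl, which marks HIF proteins for degradation, was 3.01-fold higher. These ratios share the differentiated library with the comparison over TSC and carry counting error only.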
